A study of Mus musculus with 9 samples.

Results

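The cyclin-dependent kinase (CDK) inhibitors and the pocket proteins, which carry the brake on the cell cycle that p21 and p16 apply, were followed in mouse embryonic fibroblasts made to overexpress p21 or p16. They are 10 genes, taken by symbol from the 24062 genes of the count table: the 3 CIP/KIP inhibitor genes Cdkn1a (encoding p21), Cdkn1b (p27) and Cdkn1c (p57), the 4 INK4 inhibitor genes Cdkn2a (p16), Cdkn2b (p15), Cdkn2c (p18) and Cdkn2d (p19), and the 3 pocket protein genes Rb1 (pRB), Rbl1 (p107) and Rbl2 (p130). All 10 were in the table, and all 10 passed the filter on low counts.

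All cells were embryonic fibroblasts of the C57BL/6 strain, primary connective tissue cells from mouse embryos. The p21 group (3 libraries) carried a lentivirus overexpressing p21, the p16 group (3 libraries) one overexpressing p16, and the control group (3 libraries) a control lentivirus (EV in the titles), and RNA was taken on day 10. The labels describe the overexpressing cells as senescent, a state of lasting growth arrest, and apply the same word to the control cells in a status field. The p16 records carry no vector or status field, so their group rests on the title and the treatment text, and their record numbers do not run on from the other 6. If they were also prepared or sequenced apart, that cannot be told apart from p16. The age and number of embryos, the promoter of the vectors and the species of the inserted sequences are not stated in the sources used here. Nor is it said whether replicates came from separate cultures, so p-values measure the spread between these libraries. Between replicates 1 and 2 that spread may be technical. Replicate 3 of each group differed from both in the X-linked gene Xist and the Y-linked gene Ddx3y, so it was not a repeat of the same cells.

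CDKs, bound to a cyclin, phosphorylate the pocket proteins and so release E2F transcription factors, which switch on genes for DNA synthesis. INK4 proteins bind CDK4 and CDK6 and keep D-type cyclins from activating them, whereas CIP/KIP proteins bind cyclin-CDK complexes more widely and are best known for stopping CDK2. Unphosphorylated pRB holds activating E2F factors, and p107 and p130 bind E2F4 and E2F5 and can join the MuvB core in the repressive DREAM complex. In cultured mouse fibroblasts the Cdkn2a-Cdkn2b locus is well known to rise with passage and senescence.

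Libraries held 56.9 to 76.1 M counts (M, mega), and counts of the 10 genes ran from 184 to 88481 per library. The 9 fibroblast markers summed to 30415 to 33887 CPM in p21, 31501 to 36189 CPM in p16 and 25827 to 37046 CPM in control libraries (CPM, counts per M counts after TMM scaling), a sum in which Col1a1 is the most abundant gene. Of these 9, Pdgfra was 2.37-fold lower in p21 than in control cells (adjusted p = 0.00448), S100a4 1.58-fold higher (adjusted p = 0.0116) and Thy1 1.15-fold higher (adjusted p = 0.0199), with 1 called higher in place of 2 without control replicate 2, p21 replicate 1 or p21 replicate 3. In p16 cells 0 of the 9 were called by edgeR, and DESeq2 called 1. At an unadjusted p under 0.05, 1 was higher and 1 lower, while 24.6% of all genes tested passed that either way. Replicate 3 of each group stood apart: Xist, which coats the inactive X chromosome, was at 158 to 397 CPM there and at no more than 1.34 CPM in the other libraries. Of 14572 genes tested with edgeR, 39.9% were called at an adjusted p under 0.05 between p21 and control (19.3% higher and 20.7% lower). Between p16 and control 7.22% were called (3.57% higher and 3.65% lower), and between p21 and p16 12.8%. Markers of leukocytes moved with p21: 4 of the 8 tested were called higher than in control, none lower, and the list summed to 21.5 to 37.3 CPM in p21, 9.92 to 12.7 CPM in p16 and 11.6 to 12.8 CPM in control libraries. Their most abundant gene, Lyz2, averaged 17.3 ± 5.53 CPM in p21 and 3.88 ± 0.757 CPM in control libraries (SD, n = 3 each), and none of the 8 was at 0 in all libraries. Their part in the results below was not tested. Of 2 tested skeletal muscle markers, Acta1 (3.09-fold) and Des (2.4-fold) were higher in p21 than in control cells, and both were called higher in p16 cells too, while Myf5, which defines muscle precursors, was at 0 in every library. Of 5 endothelial genes 1 (Emcn) was called higher in p21 and in p16 cells. The p16 call was lost without any 1 of the control libraries or p16 replicate 2 or 3, and in p21 cells 2 were called without control replicate 3 or p21 replicate 1 or 2. Of 3 tested nerve genes 1 was lower in p21 cells, a call lost without control replicate 1 or p21 replicate 3. Of 3 tested epithelial genes, 0 were called in p21 or in p16 cells by edgeR, at an adjusted or unadjusted p under 0.05, or by DESeq2. In p21 cells, however, 1 was called lower with the replicate number as a block in the fit, or with replicate 3 of every group left out, and 1 higher without control replicate 1. In bulk RNA, fewer cells of a kind and less RNA per cell cannot be told apart.

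The promoters of the 4 genes that fell in p21 cells, and the 2 starts of Cdkn2a, are shown because these genes either moved together or are counted in 1 row despite separate starts. RefSeq (GRCm38.p6) gave windows of 250 bases before to 50 after a start for 8 of the 10 genes, 11 windows in all. Each sequence is written 5′ to 3′ along the gene, and capitals mark a match to the E2F motif.
Rbl1, chr2:157204485-157204784, minus strand: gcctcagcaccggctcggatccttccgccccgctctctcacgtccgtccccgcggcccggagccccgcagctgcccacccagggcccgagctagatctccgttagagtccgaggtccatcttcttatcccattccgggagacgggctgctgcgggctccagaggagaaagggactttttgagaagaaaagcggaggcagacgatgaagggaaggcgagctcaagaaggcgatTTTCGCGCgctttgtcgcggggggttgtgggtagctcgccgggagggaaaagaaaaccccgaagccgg
Cdkn1b, chr6:134920151-134920450, plus strand: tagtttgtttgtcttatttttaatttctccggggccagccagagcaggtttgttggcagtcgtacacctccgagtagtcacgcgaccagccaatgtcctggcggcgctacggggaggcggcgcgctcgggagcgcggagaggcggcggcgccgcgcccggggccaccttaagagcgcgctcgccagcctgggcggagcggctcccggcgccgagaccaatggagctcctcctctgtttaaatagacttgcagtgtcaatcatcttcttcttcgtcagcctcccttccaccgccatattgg
Cdkn2c, outer start, chr4:109666707-109667006, minus strand: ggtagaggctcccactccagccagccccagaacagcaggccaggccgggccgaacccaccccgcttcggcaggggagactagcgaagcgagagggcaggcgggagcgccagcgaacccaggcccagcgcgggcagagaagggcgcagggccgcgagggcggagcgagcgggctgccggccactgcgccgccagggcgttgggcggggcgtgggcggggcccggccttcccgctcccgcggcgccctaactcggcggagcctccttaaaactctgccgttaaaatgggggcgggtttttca
Cdkn2c, inner start, chr4:109665323-109665622, minus strand: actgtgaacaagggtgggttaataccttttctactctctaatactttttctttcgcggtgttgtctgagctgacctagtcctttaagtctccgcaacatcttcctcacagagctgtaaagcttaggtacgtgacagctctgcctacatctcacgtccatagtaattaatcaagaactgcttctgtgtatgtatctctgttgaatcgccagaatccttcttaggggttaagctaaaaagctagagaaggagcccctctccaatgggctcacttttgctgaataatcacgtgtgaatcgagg
Cdkn2d, chr9:21291160-21291459, minus strand: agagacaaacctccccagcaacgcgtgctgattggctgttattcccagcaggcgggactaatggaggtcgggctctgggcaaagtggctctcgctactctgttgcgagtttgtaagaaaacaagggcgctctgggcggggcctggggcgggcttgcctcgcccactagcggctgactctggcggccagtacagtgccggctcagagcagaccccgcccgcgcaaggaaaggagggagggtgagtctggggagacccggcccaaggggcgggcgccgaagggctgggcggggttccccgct
Cdkn2a, Arf start, chr4:89294570-89294869, minus strand: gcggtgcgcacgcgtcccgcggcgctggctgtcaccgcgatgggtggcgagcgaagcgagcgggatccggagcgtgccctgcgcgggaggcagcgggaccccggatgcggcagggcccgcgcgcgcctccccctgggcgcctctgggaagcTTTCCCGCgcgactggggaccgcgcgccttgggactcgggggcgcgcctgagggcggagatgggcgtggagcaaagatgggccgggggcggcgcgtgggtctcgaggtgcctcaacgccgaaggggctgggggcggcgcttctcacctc
Cdkn2a, p16 start, chr4:89282143-89282442, minus strand: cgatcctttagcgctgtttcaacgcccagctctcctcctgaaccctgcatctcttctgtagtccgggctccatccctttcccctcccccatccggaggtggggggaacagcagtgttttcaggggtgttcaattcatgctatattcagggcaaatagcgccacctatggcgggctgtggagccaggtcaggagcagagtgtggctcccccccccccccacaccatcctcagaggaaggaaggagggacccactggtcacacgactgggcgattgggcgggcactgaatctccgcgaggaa

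The E2F motif was searched on both strands as TTTCCCGC, TTTCGCGC, TTTGCCGC or TTTGGCGC. It occurred in 2 of the 11 windows, in Rbl1 as TTTCGCGC, 18 to 11 bases before the start, and at the Arf start of Cdkn2a as TTTCCCGC, 99 to 92 bases before the start. Of all 32851 promoter windows, 2.26% held it. The other 3 genes that fell had no such match in these windows. The cell cycle homology region element (TTTGAA) matched in 2 of the 11 windows, those of Cdkn2b and Rbl2 (17.9% of all windows), and CCAAT in 4 (37.4%). The FOXO motif GTAAACA matched in 0 (3.65%) and the p53 half-site in 2, of Cdkn1a and Cdkn2d (8.36%). No motif overlapped another. A match describes letters in a window, not binding.

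In p21 cells 3 of the 10 genes rose and 4 fell relative to control, against a background of 39.9% of all tested genes called either way. Besides the delivered Cdkn1a, the INK4 genes Cdkn2b and Cdkn2a rose, and Cdkn1b, Cdkn2c, Cdkn2d and Rbl1 fell. In p16 cells the delivered Cdkn2a rose, Cdkn2b rose too and Cdkn2d fell, 3 of 10 genes against 7.22% of all tested genes. Each of these counts includes the gene that its vector delivers, a call that follows from the design. With the replicate number as a block 3 genes were called higher and 4 lower in p16 cells. Over all genes the block raised the calls too, from 520 to 1252 higher and from 532 to 1221 lower. The count of members lower was 2 without control replicate 1 and 0 without p16 replicate 1 or 2, and DESeq2 on all libraries called 3. Lower calls over all genes in these fits were 385, 92, 66 and 885, in that order. Libraries of the groups did not overlap for 7 genes between p21 and control (49.8% of all genes tested) and for 6 between p16 and control (28.7%). The median log2 fold change of the 10 genes was 0.092 for p21 and 0.063 for p16, beside -0.011 and -0.0097 over all genes tested. The comparisons of p21 and of p16 use the same 3 control libraries.

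**Figure D1:**
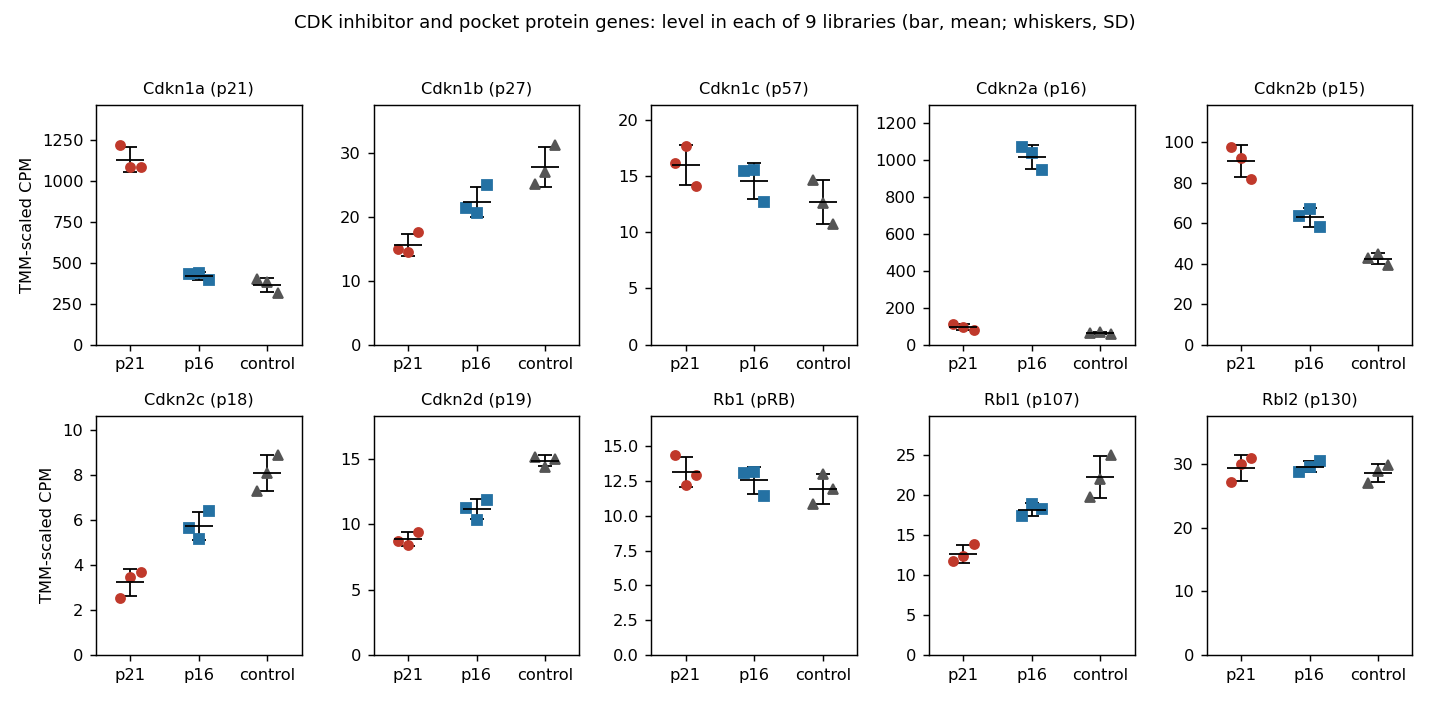
Each panel plots the TMM-scaled CPM of 1 gene in the 3 p21 (circles), 3 p16 (squares) and 3 control (triangles) libraries, with the mean as a bar and the SD as whiskers, on an axis from 0. Cdkn1a is high in p21 libraries and Cdkn2a in p16 libraries, Cdkn2b steps down and Cdkn1b, Cdkn2c, Cdkn2d and Rbl1 step up from p21 over p16 to control, and Rb1 and Rbl2 overlap in all groups.

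Cdkn1a (chromosome 17, 29090976 to 29100727, plus strand) encodes p21 and checks the labels. It stood at 1218, 1087 and 1085 CPM in p21 libraries, 429, 435 and 394 CPM in p16 libraries and 399, 383 and 317 CPM in control libraries. Every p21 library lay above all others, while p16 and control libraries overlapped. Relative to control, p21 cells had 3.09-fold more Cdkn1a RNA (adjusted p = 8.05e-06), a log2 fold change of 1.63 ± 0.0891 (SE). Between p16 and control cells the fold was 1.15 and the gene did not pass (adjusted p = 0.2; adjusted p = 0.0308 with the replicate number as a block). Whether the p21 reads came from the vector or the cell's own gene is not told by the counts.

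Cdkn1b (chromosome 6, 134920401 to 134925513, plus strand) encodes p27, which holds cyclin E-CDK2 and cyclin A-CDK2 in check in resting cells. Its level was 14.9, 14.4 and 17.7 CPM in p21, 21.4, 20.6 and 25.0 CPM in p16 and 25.2, 27.04 and 31.3 CPM in control libraries. The p21 libraries lay below all others, and the highest p16 library lay just under the lowest control library. Cdkn1b was 1.78-fold lower in p21 than in control cells (adjusted p = 0.000361), with a log2 fold change of -0.83 ± 0.109 (SE). In p16 cells it was 1.25-fold lower and did not pass (adjusted p = 0.106; adjusted p = 0.00465 with the block).

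Cdkn1c (chromosome 7, 143458339 to 143461050, minus strand), an imprinted gene, encodes p57, a growth inhibitor of the embryo. It ranged from 14.1 to 17.7 CPM in p21, 12.7 to 15.6 CPM in p16 and 10.7 to 14.6 CPM in control libraries, and all 3 groups overlapped. Its log2 fold change was 0.33 in p21 (95% interval 0.017 to 0.65, adjusted p = 0.0659) and 0.20 in p16 cells (-0.12 to 0.52, adjusted p = 0.386) relative to control. The p21 value passed without control replicate 1 (adjusted p = 0.0209) or p21 replicate 3 (adjusted p = 0.0401), with only replicates 1 and 2 (adjusted p = 0.0315) and with DESeq2 (adjusted p = 0.0386). It also passed with the block and with a filter of CPM 1 in 3 libraries. Over all alternatives its adjusted p ran from 0.00355 to 0.192. In GENCODE M21, 30.7% of its exon bases overlap a transcript on the other strand, Gm44732, whose reads an unstranded kit cannot separate.

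The INK4 genes split into a pair that rose and a pair that fell. Cdkn2a (chromosome 4, 89274471 to 89294653, minus strand) stood at 113, 94.3 and 79.6 CPM in p21 libraries, 1069, 1036 and 944 CPM in p16 libraries and 60.8, 68.8 and 59.6 CPM in control libraries. No 2 groups overlapped. Set against control, its log2 fold change was 0.60 ± 0.114 (SE) for p21, which is 1.52-fold (adjusted p = 0.0027). For p16 it was 4.01 ± 0.128 (SE), which is 16.1-fold (adjusted p = 6.8e-07). Among p21 libraries it was highest in replicate 1, and over the alternatives tried the p21 log2 fold change ran from 0.47 to 0.72, with an adjusted p of at most 0.00931.

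The count of Cdkn2a pools 2 transcripts whose proteins differ. The p16 transcript starts in an exon at 89281986 to 89282192, the transcript of p19Arf, which frees p53 by binding MDM2, starts upstream at 89294334 to 89294653, and both go on to an exon at 89276645 to 89276985 and a last exon that starts, along the gene, at 89274774. They share 575 bases, 67.5% of the annotated p16 transcript and 64.2% of the Arf transcript. The values above therefore do not say which of them rose in p21 cells, nor how much of the p16 group's signal is vector RNA.

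Cdkn2b (chromosome 4, 89306299 to 89311039, minus strand) lies 11.6 kb from Cdkn2a and encodes p15, an inhibitor of CDK4 and CDK6 known as a target of TGF-beta. It was measured at 97.7, 92.3 and 82.0 CPM in p21 libraries, 63.7, 66.9 and 58.0 CPM in p16 libraries and 42.7, 45.0 and 39.5 CPM in control libraries. The groups formed separate steps, with p21 highest and control lowest. Its log2 fold change against control was 1.10 ± 0.0809 (SE) for p21, a 2.14-fold rise (adjusted p = 1.74e-05). For p16 it was 0.57 ± 0.0805 (SE), a 1.48-fold rise (adjusted p = 0.00724). Neither vector was labelled as carrying this gene. The protein-coding neighbours beyond the pair were Mtap, an enzyme of methionine salvage, and Dmrta1. Mtap stood at 149 ± 10.7 CPM in p21, 137 ± 14.7 CPM in p16 and 139 ± 23.9 CPM in control cells and did not pass in either comparison with control (adjusted p = 0.534 for p21 and 0.943 for p16). Dmrta1 averaged no more than 0.196 CPM in any group.

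Cdkn2c (chromosome 4, 109660876 to 109667189, minus strand) encodes p18 and is an inhibitor gene that proliferating cells also express. It had 2.53, 3.48 and 3.68 CPM in p21 libraries, 5.64, 5.18 and 6.40 CPM in p16 libraries and 7.32, 8.09 and 8.88 CPM in control libraries, again with no overlap between groups. This was the largest fall among the 10 genes in p21 cells, 2.51-fold relative to control (log2 fold change -1.33 ± 0.152 SE, adjusted p = 0.000169). In p16 cells it was 1.41-fold lower and did not pass (adjusted p = 0.0745; adjusted p = 0.0125 with the block and 0.0174 with DESeq2).

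Cdkn2d (chromosome 9, 21288410 to 21291407, minus strand) encodes the INK4 protein p19, distinct from p19Arf. Its libraries read 8.76, 8.44 and 9.44 CPM in p21, 11.3, 10.4 and 11.9 CPM in p16 and 15.2, 14.4 and 15.03 CPM in control cells. The control values lay close together and above all others. Against control the log2 fold change was -0.75 ± 0.0755 (SE) for p21, or 1.68-fold lower (adjusted p = 8.51e-05). It was -0.41 ± 0.0748 (SE) for p16, or 1.33-fold lower (adjusted p = 0.0148). The call for p16 rested on p16 replicates 1 and 2: leaving out either ended it (adjusted p = 0.0572 and 0.0707).

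Of the pocket protein genes, Rbl1 alone was called. Rbl1 (chromosome 2, 157145893 to 157204534, minus strand) encodes p107, the pocket protein that is most abundant in dividing cells and is itself a known E2F target. It stood at 11.7, 12.4 and 13.9 CPM in p21, 17.3, 18.9 and 18.3 CPM in p16 and 19.8, 22.1 and 25.0 CPM in control libraries, with no overlap between groups. It was 1.76-fold lower in p21 than in control cells (adjusted p = 0.000181), with a log2 fold change of -0.81 ± 0.0949 (SE). In p16 cells it was 1.22-fold lower and did not pass (adjusted p = 0.0913). That value passed with the block (adjusted p = 0.0159), with DESeq2 (adjusted p = 0.0477) and without control replicate 1 (adjusted p = 0.0455).

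Rb1 (chromosome 14, 73183673 to 73325822, minus strand), the retinoblastoma tumour suppressor gene, ranged from 12.2 to 14.3 CPM in p21, 11.4 to 13.1 CPM in p16 and 10.8 to 12.997 CPM in control libraries. Its log2 fold change was 0.14 in p21 (95% interval -0.088 to 0.38, adjusted p = 0.256) and 0.074 in p16 cells (-0.16 to 0.31, adjusted p = 0.689). Rbl2 (chromosome 8, 91070057 to 91123844, plus strand) encodes p130, the pocket protein typical of resting cells. It ranged from 27.2 to 31.0 CPM in p21, 28.7 to 30.5 CPM in p16 and 26.99 to 29.8 CPM in control libraries, and its log2 fold change was 0.041 in p21 (-0.11 to 0.19, adjusted p = 0.63) and 0.051 in p16 cells (-0.10 to 0.20, adjusted p = 0.669). The groups overlapped for both genes, and the intervals of the main fit bound their changes below 1.3-fold in either direction. Over the alternatives the p21 log2 fold change of Rb1 ran from 0.084 to 0.21, with an adjusted p of at least 0.148. Of the exon bases of Rb1, 8.11% overlap Rcbtb2 and 6.78% overlap Lpar6, and of those of Rbl2, 9.17% overlap Aktip, all on the other strand.

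**Figure D2:**
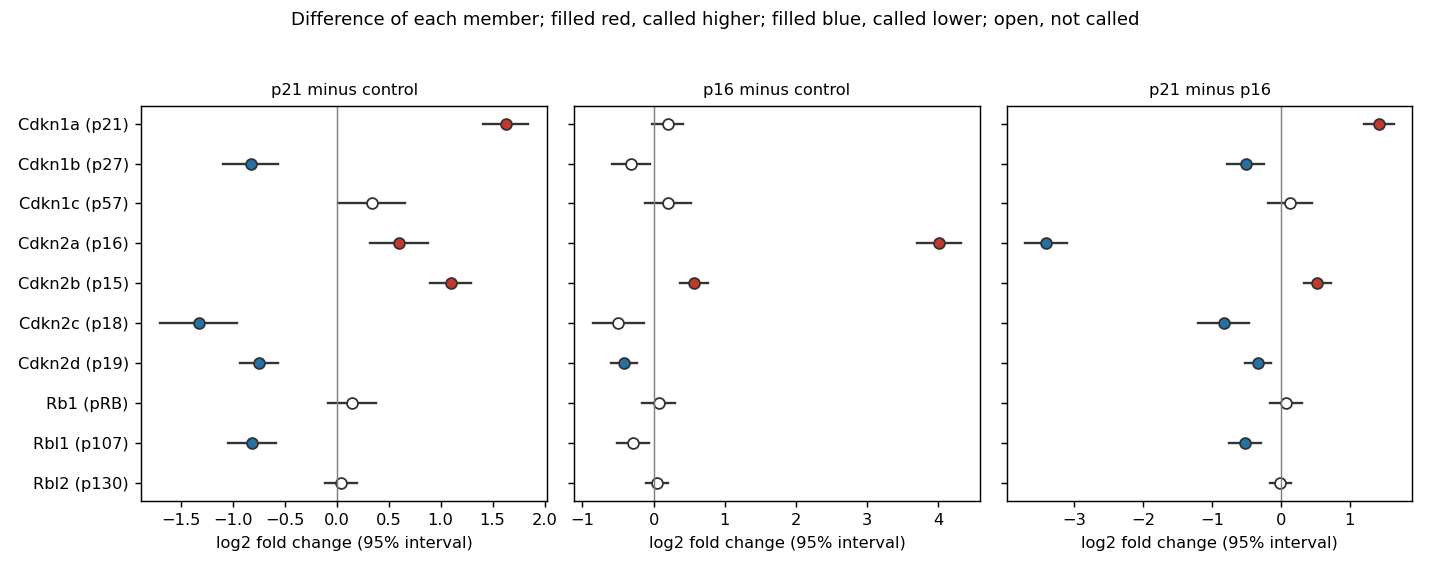
The 3 panels give the log2 fold change of each gene with its 95% interval in p21 against control, p16 against control and p21 against p16 cells, each on its own horizontal scale. Filled points passed an adjusted p of 0.05, red for higher and blue for lower, and 7, 3 and 7 of the 10 genes are filled.

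The direct comparison of p21 with p16 cells tests whether their effects differ. Of the 10 genes 2 were higher (6.19% of all tested genes) and 5 lower (6.64%) in p21 cells, against 12.8% of all tested genes called either way, and the libraries of the 2 groups did not overlap for 7 (36.0% of all tested genes). The delivered genes, both among those counted, parted as the vectors do, Cdkn1a 2.69-fold higher (adjusted p = 0.000191) and Cdkn2a 10.6-fold lower in p21 cells (adjusted p = 2.45e-06). Among genes that neither vector was labelled as carrying, Cdkn2b was 1.44-fold higher in p21 than in p16 cells (log2 fold change 0.53 ± 0.0801 SE, adjusted p = 0.00386). Cdkn2c was 1.78-fold lower (adjusted p = 0.00901), Rbl1 1.44-fold lower (adjusted p = 0.0087), Cdkn1b 1.43-fold lower (adjusted p = 0.0168) and Cdkn2d 1.26-fold lower (adjusted p = 0.0219). Without p21 replicate 1, 2 genes were called lower in place of 5, Rbl1 (adjusted p = 0.0503), Cdkn1b (0.0821) and Cdkn2d (0.0887) being lost, and 3 were called lower without p21 replicate 2 and 3 without p16 replicate 3. Cdkn1c, Rb1 and Rbl2 did not pass (adjusted p = 0.545, 0.677 and 0.935), with 95% intervals of the log2 fold change of -0.18 to 0.45, -0.16 to 0.30 and -0.16 to 0.14.

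Levels were set against each other per kilobase (kb) of annotated exon. In control cells the order was Cdkn1a at 103 ± 12.3, Cdkn2a at 53.8 ± 4.29 and Cdkn2b at 30.5 ± 1.97 CPM per kb, and no other gene of the 10 exceeded 9.45 CPM per kb (Cdkn2d). In p21 cells the same 3 genes led, Cdkn1a at 318 ± 21.5, Cdkn2a at 81.6 ± 14.2 and Cdkn2b at 65.2 ± 5.75 CPM per kb, the ranges of Cdkn2a and Cdkn2b overlapping. In p16 cells Cdkn2a came first at 867 ± 55.1 CPM per kb, followed by Cdkn1a at 118 ± 6.28 and Cdkn2b at 45.2 ± 3.25. Neighbours whose ranges overlapped were Rbl2 with Cdkn1b and Rb1 with Rbl1 in p21 cells, Cdkn1c with Cdkn2d and Cdkn2c with Rb1 in p16 cells, and, in control cells, Cdkn1c with Cdkn1b, Rbl2 with Rbl1 and Rbl1 with Cdkn2c.

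Together the 7 inhibitor genes came to 483 ± 39.7 CPM per kb in p21, 1052 ± 63.5 in p16 and 212 ± 16.3 in control cells. Cdkn1a made up 65.9% ± 1.63 of that sum in p21, 11.2% ± 0.218 in p16 and 48.5% ± 2.49 in control cells. Cdkn2a made up 16.8% ± 1.61, 82.4% ± 0.394 and 25.4% ± 1.58 in the same order of groups. The 5 inhibitor genes other than these came to 83.3 ± 5.6 CPM per kb in p21, 66.5 ± 2.83 in p16 and 55.3 ± 1.68 in control cells, and the groups did not overlap. Cdkn2b made up most of that remainder in every group, so the sum was higher although Cdkn1b, Cdkn2c and Cdkn2d were lower in p21 cells. All these sums and shares depend on the exon length used, and their SDs cover only the spread between libraries. Cdkn1a came to 543.4 CPM per kb of its longest transcript in p21, 201.7 in p16 and 176 in control cells. Values of Cdkn1b and Cdkn2b were the same by either length. Sums and shares by the longest transcript were not computed.

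**Figure D3:**
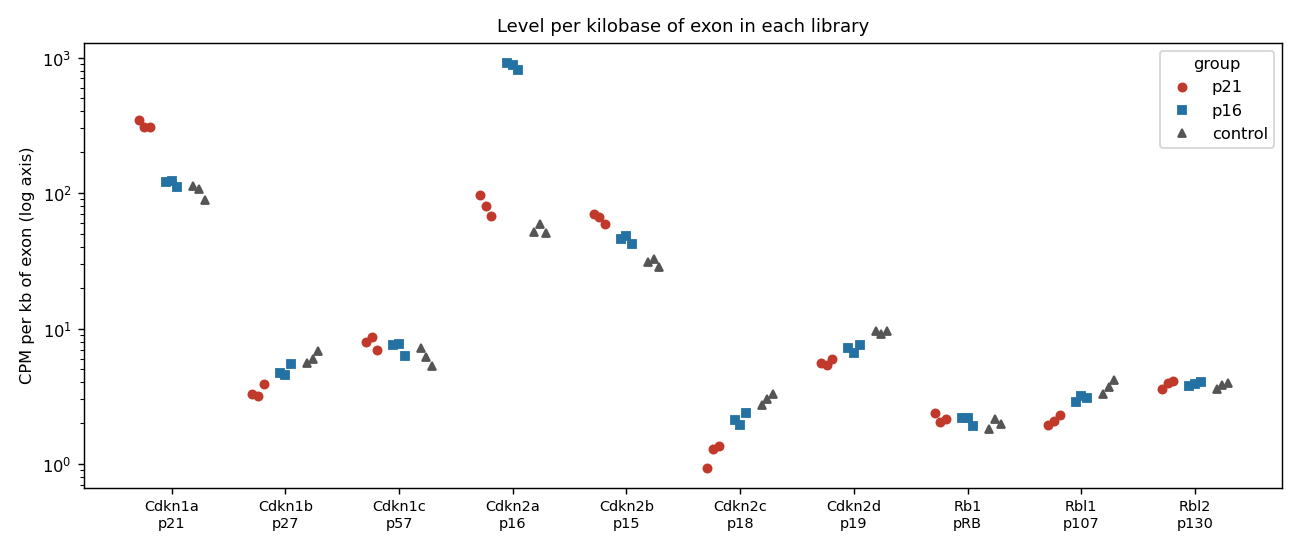
Points give the level of each gene in each library as CPM per kb of exon on a log axis, with p21 circles, p16 squares and control triangles from left to right. Cdkn1a, Cdkn2a and Cdkn2b lie above 28 CPM per kb in all libraries and the other 7 genes below 10.

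The kinases and cyclins that the inhibitors act on changed in different directions in p21 cells. Of 16 tested genes of the cyclin and CDK list, 9 fell and 3 rose (median log2 fold change -0.31; 20.7% of all genes fell and 19.3% rose). Cdc25b, a phosphatase that activates CDKs, was 2.45-fold lower (adjusted p = 6.52e-06), and the cyclin genes Ccna2 and Ccnb1 were 2.28-fold and 2.32-fold lower. The 3 that rose were the D-type cyclin genes, named after their values were seen: Ccnd2 was 1.64-fold higher (adjusted p = 4.92e-05), Ccnd1 1.48-fold (adjusted p = 0.0308) and Ccnd3 1.22-fold (adjusted p = 0.0109). The list had 2 higher calls in place of 3 without control replicate 2 or 3 or p21 replicate 1 or 2. Of the kinase genes, also named after their values were seen, Cdk2 averaged 24.7 CPM in p21 and 37.6 CPM in control cells, 1.52-fold lower (adjusted p = 0.000257). Cdk4 was 1.17-fold lower (adjusted p = 0.00227), and Cdk6 had a fold of 1.1 and did not pass (adjusted p = 0.283).

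In p16 cells 5 of the 16 fell and 1 rose (median -0.11; 3.65% of all genes fell and 3.57% rose), with 2 higher with the block or without control replicate 1. Ccnd2 was 1.44-fold higher (1111 ± 66.7 CPM in p16 against 769 ± 47.5 CPM in control cells, adjusted p = 0.00523), and Cdc25b was 1.59-fold lower. Leaving out p16 replicate 1 or 2 left 2 genes lower, and leaving out p16 replicate 3 left 3.

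Among the partners of the pocket proteins, 10 of 17 genes for E2F, DP and MuvB proteins fell and 2 rose in p21 cells (median -0.28), beside the same 20.7% and 19.3% of all genes. Mybl2, which takes over the MuvB core in dividing cells, averaged 17.8 ± 0.949 CPM in p21 and 40.4 ± 7.16 CPM in control cells, 2.27-fold lower (adjusted p = 8.47e-05), Foxm1, its mitotic partner, 2.06-fold and the repressor gene E2f8 2.03-fold lower. The repressor gene E2f6 was 1.49-fold higher (adjusted p = 0.000111), and E2f3, named after its value was seen, 1.16-fold higher (adjusted p = 0.014). Without control replicate 3 only 1 of them was called higher. In p16 cells 4 of the 17 fell and 1 rose (median -0.094; 3.65% of all genes fell and 3.57% rose), with Mybl2 1.61-fold and E2f8 1.5-fold lower and E2f4, the main partner of p130, 1.16-fold lower. The count of those lower was 1 without p16 replicate 1 or 2, 2 without p16 replicate 3, control replicate 1 or control replicate 2, and the gene called higher was lost without control replicate 2 or 3 or any p16 library.

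E2F target genes fell in 19 of 20 cases in p21 cells (median -0.74), beside 20.7% of all genes. With edgeR 0 rose, adjusted (19.3% of all genes) or at an unadjusted p under 0.05 (48.6% of all genes passed that either way), nor did any with DESeq2. Uhrf1, which maintains DNA methylation, averaged 49.8 ± 4.02 CPM in p21 and 109.7 ± 9.06 CPM in control cells, 2.2-fold lower (adjusted p = 1.43e-05), and the helicase genes Cdc45, Mcm5 and Mcm6 were 1.92-fold, 1.87-fold and 1.66-fold lower. In p16 cells 7 of the 20 fell (median -0.34; 3.65% of all genes fell), Uhrf1 by 1.48-fold (adjusted p = 0.00669) and the thymidine kinase gene Tk1 by 1.46-fold (adjusted p = 0.0256). With the replicate block and with DESeq2 the p16 count was 11, and it was 1 without p16 replicate 1 or 2, 2 without p16 replicate 3 and 3 without control replicate 2. Lower calls over all genes moved too, from 532 to 1221 with the block and 885 with DESeq2. Without those libraries they were 92, 66, 163 and 160, in the same order. Between p21 and p16 cells 13 of the 20 were lower in p21, beside 6.64% of all genes. That count was 4 without p21 replicate 1, 6 without p21 replicate 2 or p16 replicate 3 and 5 without p16 replicate 1 or 2. Lower calls over all genes went from 968 to between 316 and 524 in these fits. Mki67, a marker of cycling cells, stood at 106 ± 11.8 CPM in p21, 176 ± 12.9 CPM in p16 and 268 ± 17.9 CPM in control libraries, and Lmnb1, the lamin B1 gene that falls in senescence, at 44.3 ± 4.28, 64.2 ± 4.27 and 92.1 ± 11.4 CPM in the same groups.

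Of 16 genes for the breakdown of CDK inhibitors, 6 fell and 2 rose in p21 cells (median -0.065), beside 20.7% of all genes that fell and 19.3% that rose. In p16 cells edgeR called 0, and 5 were lower at an unadjusted p under 0.05 (24.6% of all genes passed that either way). DESeq2 called 2, the block 3, scaling by library totals 2 and the fit without p21 replicate 1 called 1, all lower. Skp2, the ubiquitin ligase subunit that targets p27, averaged 16.96 ± 0.497 CPM in p21 and 26.2 ± 3.1 CPM in control cells, 1.55-fold lower (adjusted p = 0.000284), and Cdkn1b RNA was lower too. Cdc20 and Ube2c of the anaphase-promoting complex were 1.99-fold and 2.19-fold lower. In p16 cells the most abundant gene of the list, Ddb1, had a fold of 1.04 (adjusted p = 0.608).

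Of 19 transcriptional regulators of the inhibitors, 6 fell and 1 rose in p21 cells (median -0.056), beside 20.7% of all genes that fell and 19.3% that rose. Taken either way, the calls were close to the share of all genes called, 39.9%. Myc, a repressor of several inhibitor genes, averaged 90.1 ± 4.75 CPM in p21 and 117 ± 5.76 CPM in control cells, 1.29-fold lower (adjusted p = 0.00112), Ets2 1.57-fold lower, Id2, which binds pRB, 1.3-fold lower and Sp1 1.29-fold lower. Trp53, named after its value was seen, was 1.21-fold lower (adjusted p = 0.00592). The gene that rose was the p53 target Mdm2 (1.29-fold, adjusted p = 0.0472), a call lost without control replicate 2 or 3, p21 replicate 1 or 2, or p16 replicate 1 or 2. In p16 cells 0 of the 19 were called by edgeR, beside 7.22% of all genes, and DESeq2 called 1. At an unadjusted p under 0.05, 4 were lower, while 24.6% of all genes passed that either way. The block, and likewise the fit without control replicate 1, called 1 higher and 2 lower. Klf6, the most abundant, had in p16 cells a fold of 1.06 (adjusted p = 0.656).

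Polycomb proteins repress the Cdkn2a-Cdkn2b locus in young fibroblasts. Of 15 regulators of that locus 6 fell (20.7% of all genes) and 0 rose in p21 cells by edgeR (median -0.13), and DESeq2 called 0 higher. Either way, the calls by edgeR were close to the 39.9% of all genes called. At an unadjusted p under 0.05, 1 was higher with edgeR, while 48.6% of all genes passed that either way. Of those that fell 2, Ezh2 and Cdc6, also stand in the E2F target list. The methyltransferase gene Ezh2 averaged 30.2 ± 2.77 CPM in p21 and 45.1 ± 6.39 CPM in control cells, 1.5-fold lower (adjusted p = 0.00165), its partner Suz12 1.25-fold lower, the demethylase gene Kdm2b 1.31-fold lower and Cdc6 2.02-fold lower. Bmi1, named after its value was seen, was 1.12-fold lower (adjusted p = 0.0466), and Cbx7, likewise named, at 0.727 CPM in p21 and 0.798 CPM in control cells, did not pass. Without control replicate 3, 2 genes of this list were called higher, and 1 was without control replicate 1. In p16 cells Cdc6 alone was called (1.45-fold lower, adjusted p = 0.0317; 3.65% of all genes fell), a call lost without any 1 of the p16 libraries, and 2 genes were called with the block. Srsf3, a splicing factor gene and the nearest protein-coding gene on 1 side of Cdkn1a at 47.6 kb, averaged 174 ± 6.19 CPM in p21, 216 ± 7.62 CPM in p16 and 252 ± 6.07 CPM in control cells (adjusted p = 3.75e-05 for p21 and 0.0221 for p16 against control). The p16 call for Srsf3 was lost without control replicate 2 or any 1 of the p16 libraries.

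**Figure D4:**
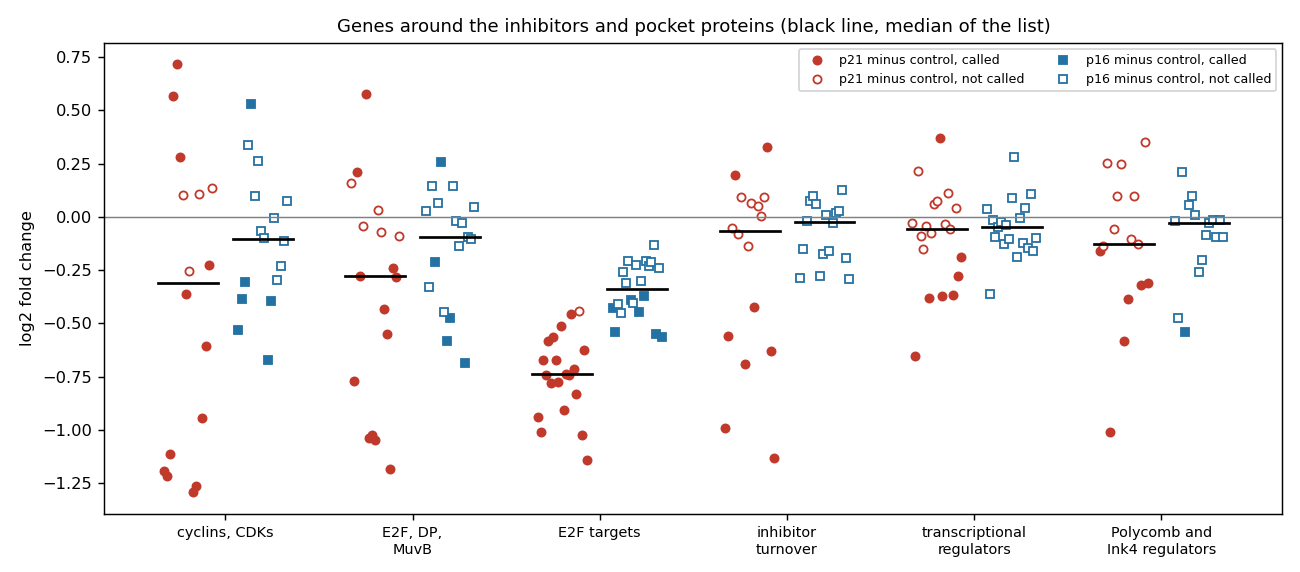
Each point is the log2 fold change of 1 gene in p21 minus control (circles) or p16 minus control (squares), by list, filled where the adjusted p was under 0.05, with the median as a black line. E2F targets lie below 0 in both comparisons, with medians of -0.74 and -0.34, while medians of the 3 lists on the right lie between -0.13 and -0.024.

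Across the 9 libraries, the genes whose log2 CPM followed a member most closely were picked from the 10446 genes whose log2 CPM averaged 2 or more. These values describe libraries that share 3 group levels and carry no test. For Cdkn2b they were Sgpl1 (Pearson r = 0.998), which encodes sphingosine phosphate lyase, Serinc1 (0.996) and Hibadh (0.996). Sgpl1 averaged 170.4 CPM in p21, 148 CPM in p16 and 128 CPM in control cells, the same order of groups as Cdkn2b over a narrower range. For Rbl1 they were the microtubule-binding protein gene Eml4 (0.992; 22.4 CPM in p21, 30.7 in p16 and 35.5 in control cells), N4bp2 (0.992) and Fam172a (0.991). For Cdkn1a they were Tom1 (0.991), Timmdc1 (0.989) and Cbr1 (0.987), Tom1 standing at 37.1 CPM in p21, 30.6 in p16 and 30.1 in control cells. Cdkn2a was followed less closely, by Socs5 (0.981), the heat shock protein gene Hspa1a (0.954) and the Notch ligand gene Jag1 (0.939). Socs5 averaged 98.1 CPM in p21, 106 in p16 and 95.5 in control cells, a much narrower range than that of Cdkn2a.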

How the data were processed

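Reads of the 9 RNA-seq libraries were counted per gene by the authors, and the deposited values are raw read counts per gene symbol for 24062 genes. The tools listed in the submitters' processing notes are featureCounts 1.4.6, Subread, TopHat2 2.0.14 and Bowtie2 2.2.6, and the build is mm10; the sources used here do not give annotation, strand setting or the handling of multiply mapped reads. The library kit named in the labels' protocols (TruSeq version 2) does not mark strand.

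From these counts, edgeR 4.0.16 (R 4.3.3) kept 14572 genes by filterByExpr, scaled by TMM and fitted the 3 group means to all 9 libraries. The quasi-likelihood F test was adjusted by Benjamini-Hochberg over all genes tested, with calls at 0.05. The 95% intervals use the SE and 6 residual degrees of freedom. CPM are TMM-scaled, with SD over 3 libraries. Coordinates and exon lengths are those of GENCODE M21 (GRCm38, the assembly called mm10). Scripts were tested on simulated data. Alternatives were other scalings and filters, DESeq2 1.42.0, 6-library fits, the replicate block and libraries left out.

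Named besides the members are up to 4 called genes of each list by lowest adjusted p, the most abundant gene where none was called, the 3 genes with the highest Pearson r to Cdkn1a, Cdkn2a, Cdkn2b and Rbl1, and Mki67 and Lmnb1; others were chosen after their values were seen. Members and lists were chosen with earlier results of these data known. Library pairs within a group differed beyond sampling noise (chi-square per degree of freedom 10.4 to 101), so none was merged. Deviations from group means of same-numbered libraries correlated across genes at 0.25, 0.11 and 0.55 for p16 with control. For p21 with p16 they did so at 0.16, 0.29 and 0.48, and for p21 with control at 0.18, 0.025 and 0.49, beside a limit of 0.1. Libraries numbered 1 and 2 also correlated across numbers, at 0.044 to 0.36, while replicate 3 correlated with them at -0.46 to -0.056. The values thus set replicate 3 apart but do not show numbers 1 and 2 to be pairs. The labels state no pairs either. The main fit used no pairing, so its p-values are unpaired, and the replicate number entered only as the block among the alternatives.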

Additional observations from a re-analysis of the deposited data

How the results depend on the processing

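Of 17 alternatives for each comparison, 0 reversed a member's direction where it was called. The 5820 genes called for p21 against control stayed within 1.5 times that number in all 17. For p16 against control 1052 genes were called, 1820 with DESeq2, 555 with only the 6 libraries compared, 2473 with the replicate block, 593 without replicate 3 of every group, and 222 to 949 with 1 library left out. For p21 against p16, 1870 became 3496 with the block and ran from 600 to 2464 with 1 library left out. The log2 fold change of Cdkn1c for p21 against control, 0.33 and not called, passed with DESeq2 (0.34), a filter of CPM 1 in 3 libraries (0.35), the block (0.34) and replicates 1 and 2 (0.31), and ran from 0.23 to 0.46 with 1 library left out. For p16 against control, the block called Cdkn1a (0.20), Cdkn1b (-0.32), Cdkn2c (-0.50) and Rbl1 (-0.29), and DESeq2 called Cdkn2c (-0.49) and Rbl1 (-0.29). With 1 library left out, Rbl1 ran from -0.37 to -0.20 and Cdkn2d from -0.46 to -0.36. For p21 against p16 the left-out ranges were -0.61 to -0.43 for Cdkn1b, -0.38 to -0.29 for Cdkn2d and -0.60 to -0.47 for Rbl1, and Cdkn2d was not called with replicates 1 and 2 (-0.33). The block changed no other member's call. Fits with fewer libraries have fewer residual degrees of freedom; otherwise the cause was not tested. Per kb of the longest transcript, control levels became 176 for Cdkn1a, 70.5 for Cdkn2a, 10.5 for Cdkn2d, 2.56 for Rb1, 4.58 for Rbl1 and 5.8 CPM per kb for Rbl2.

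Cdkn2c rests on 184 to 637 counts per library, the fewest of the 10 genes. Counts do not separate p16 from p19Arf, vector from endogenous RNA, or overlapping genes on opposite strands.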

Other observations

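Replicate 3 differed from replicates 1 and 2 in the same direction in every group for several members. It had the lowest CPM of its group in all 3 groups for Cdkn1a, Cdkn1c, Cdkn2a and Cdkn2b, and the highest in all 3 groups for Cdkn1b, Cdkn2c and Rbl2. That is 4 and 3 of the 10 genes, beside 17.9% and 15.8% of all 14572 genes tested. Xist and the Y-linked gene Ddx3y also set replicate 3 apart, Ddx3y standing at 10.8 CPM in p21 replicate 3, 1.26 CPM in p16 replicate 3 and 1.1 CPM in control replicate 3, and between 50.1 and 68.5 CPM in the other libraries. Their part in the members' values was not tested.

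The D-type cyclin genes, whose products INK4 proteins oppose, were called higher in p21 cells, where Cdkn2c and Cdkn2d were lower and Cdkn2a and Cdkn2b higher. The cyclin and CDK list, however, had 2 higher calls in place of 3 without control replicate 2 or 3 or p21 replicate 1 or 2. Ccnd1 averaged 557 CPM in p21, 474 CPM in p16 and 376 CPM in control cells, and Ccnd2 averaged 1264 CPM in p21, 1111 CPM in p16 and 769 CPM in control cells.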
